A study of Mus musculus with 8 samples.

Results

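The genes described here are 10 genes of fat cells: Adipoq, Lep, Retn, Plin1, Plin4, Fabp4, Cidec, Pparg, Lpl and Lipe. They were taken by name from the deposited expression table, which lists 20681 genes, and all 10 were present and abundant enough to be tested. The table comes from poly-A RNA sequencing of whole mouse knee joints, with 4 control libraries and 4 whose labels name a knockout of Loxl2, which encodes a collagen-crosslinking enzyme. The series text places all 8 joints in mice that carry Acan-Cre, a recombinase under a cartilage cell promoter, and floxed Loxl2 alleles, and describes the control joints as treated with vehicle. The control library names carry LOXL2wt and those of the knockout carry LOXL2ko, and both carry DMM, an abbreviation commonly used for a surgical destabilisation of the meniscus. Age, sex and the agent given to the knockout joints in place of vehicle are not given in the sources used here, so any such agent is part of the contrast.

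A knee holds fat in the pad behind the patellar tendon, in the marrow and around the muscles. A fat cell stores triglyceride in a droplet coated by perilipins, takes up fatty acids that lipoprotein lipase releases from blood lipoproteins, and frees stored fatty acids with a chain of lipases. Its identity is set by the nuclear receptor PPAR-gamma together with C/EBP factors, and it secretes hormones such as adiponectin and leptin. Several of these genes are not limited to fat: Lpl, Lipe and Plin4 are also transcribed in muscle, Fabp4 in the endothelium of small vessels and in macrophages, and Pparg and Lpl in macrophages.

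The libraries held 13991000 to 17411617 reads assigned to genes. Values are normalised read counts, differences are log2 differences of the libraries labelled knockout from the control libraries, and a gene is called when its limma p-value, adjusted over the 14949 genes tested, lies under 0.05. Loxl2 itself, with means of 519 ± 411 in the control libraries and 1210 ± 329 in those labelled knockout (SD, n = 4), was higher in the libraries labelled knockout (log2 difference 1.44, limma adjusted p = 0.0294), although control replicate 3, at 1135, lay among them (exact permutation p = 0.0857). Its direction went against the label, so the second group is named only by that label. Whole joints mix all cell types and the recombinase is under a cartilage cell promoter. The level of Loxl2 here therefore cannot decide whether cartilage cells lost the gene. The fat cell label held in each library, since Adipoq, Plin1 and Cidec had at least 45, 47 and 47 reads.

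Lpl fell, and the other 9 genes were not called. Of the 10 genes 1 was called, Lpl, which was lower in the libraries labelled knockout. That is 1 gene of 10 where 23.2% of all genes tested were called in either direction and 11.6% were called lower. The median log2 difference of the 10 genes was -0.28, and that of all genes tested was 0.00. Lpl was also the 1 gene of the 10 whose groups did not overlap, where 25.1% of all genes tested had groups that did not overlap. A whole joint mixes tissues, so fewer cells of a type and less RNA per cell cannot be told apart in any of these values.

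**Figure D1:**
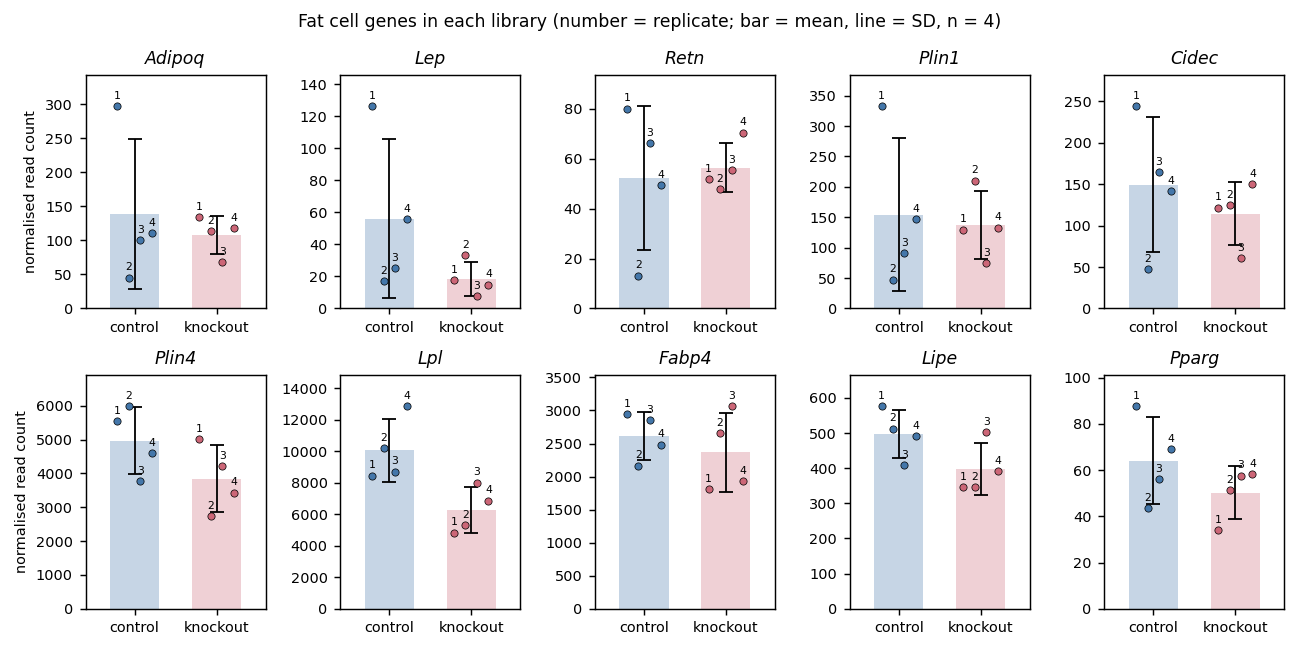
Normalised read count (vertical axis, from 0, a separate scale per gene) of the 10 fat cell genes in the 4 control and the 4 knockout-labelled libraries. Points are libraries numbered by replicate, bars are group means and lines are SD. Control replicate 1 is the highest and control replicate 2 the lowest control library for Adipoq, Lep, Retn, Plin1 and Cidec, and Lpl alone has groups that do not overlap.

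Adipoq, which encodes the fat hormone adiponectin, had 297, 45.4, 101 and 111 normalised reads in the control libraries, in replicate order. The knockout-labelled libraries had 134, 114, 68.5 and 118. The highest and the lowest library of the 8 were thus both control libraries, and the knockout-labelled values lay between them. The group means were 139 ± 110 and 108 ± 28.0 (SD, n = 4), and the log2 difference was -0.08 with a 95% interval of -1.13 to 0.98 (limma adjusted p = 0.923). These libraries do not exclude a change within that interval.

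Lep, the gene of the satiety hormone leptin, had 127, 17.2, 25.2 and 55.9 normalised reads in the control libraries, in replicate order, and 17.95, 33.4, 7.61 and 15.0 in the knockout-labelled libraries. Control replicates 1 and 4 lay above the libraries labelled knockout, and control replicates 2 and 3 lay among them. Its log2 difference of -1.32 (standard error 0.62, 95% interval -2.70 to 0.06) was not called (limma adjusted p = 0.146), and the exact permutation test gave p = 0.171. Its lowest library held 7 reads. DESeq2 on the recovered reads called it (log2 difference -1.59, DESeq2 adjusted p = 0.0428), and without control replicate 1 the limma difference was -0.80.

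Retn encodes resistin, which mouse fat cells secrete. It had 80.0, 13.1, 66.4 and 49.3 normalised reads in the control libraries, in replicate order, and 51.9, 47.9, 55.5 and 70.4 in the knockout-labelled libraries. Control replicate 2 was far below the other 7 libraries, which lay between 47.9 and 80.0. Resistin transcripts had a log2 difference of 0.36 with a 95% interval of -0.72 to 1.43 (limma adjusted p = 0.620). It turned to -0.19 when control replicate 2 was left out.

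Perilipin 1, the main droplet coat protein of fat cells, is encoded by Plin1. Its normalised read count was 333, 47.4, 90.7 and 147 in the control libraries, in replicate order, and 130, 210, 75.0 and 133 in the knockout-labelled libraries. The groups overlapped, with the control libraries on both sides of those labelled knockout, as for Adipoq. Plin1 had a log2 difference of 0.09 with a 95% interval of -1.08 to 1.26 (limma adjusted p = 0.918), and its sign changed under several alternatives.

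Cidec encodes a protein that joins lipid droplets into larger ones. Cidec had 244, 47.4, 165 and 141 normalised reads in the control libraries, in replicate order, and 122, 125, 60.9 and 151 in the knockout-labelled libraries. Control replicate 2 and knockout replicate 3 were its lowest libraries, and control replicate 1 its highest. For Cidec the difference was -0.24 on the log2 scale with a 95% interval of -1.27 to 0.79 (limma adjusted p = 0.739).

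Plin4, a perilipin of nascent droplets that muscle also transcribes, was far more abundant than Plin1 and Cidec. Per kilobase of annotated exon it had a mean of 763 normalised reads over all libraries, against 31.4 for Plin1 and 71.1 for Cidec. It had 5540, 5984, 3773 and 4587 normalised reads in the control libraries, in replicate order, and 5010, 2741, 4205 and 3428 in the knockout-labelled libraries. Control replicate 2, the lowest control library for the genes above, was here the highest of the 8. The group means were 4971 ± 988 and 3846 ± 980 (SD, n = 4), and the log2 difference of -0.38 was not called (95% interval -0.82 to 0.06, limma adjusted p = 0.183). Plin4 is overlapped on the opposite strand by Hdgfl2, and the use of strand in counting is not given in the sources used here, so its count is uncertain to that extent.

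Adipoq, Lep, Retn, Plin1 and Cidec shared a pattern across the libraries within the groups. For each of these genes, control replicate 1 stood highest and control replicate 2 lowest of the 8 libraries when measured as deviation from the mean of the group. On the log2 scale Adipoq stood 1.41 above its group mean in control replicate 1 and deviated by -1.27 in control replicate 2, and Plin1 deviated by 1.46 and -1.33. Knockout replicate 3 was the lowest knockout-labelled library for Adipoq, Lep, Plin1 and Cidec, with deviations of -0.61, -1.01, -0.77 and -0.83. For Retn that library deviated by -0.01. Control replicate 1 was also the highest and control replicate 2 the lowest control library for some markers of other cell types. The osteoblast markers Bglap and Dmp1 had 1137 and 470 normalised reads in control replicate 1 and 72.7 and 21.2 in control replicate 2. The granulocyte marker Mpo had 318 and 47.4, and the macrophage marker Csf1r 792 and 188. The macrophage markers Adgre1, C1qa, C1qb, C1qc, Mrc1 and Lyz2 had a different highest control library, for C1qa replicate 4 at 765. The granulocyte markers S100a8 and S100a9 had control replicate 3 as the lowest, at 265 and 422, beside 390 and 667 in control replicate 2. Ibsp and Elane also had a different lowest control library, by a small margin. Within the groups the SD on the log2 scale was 0.83 for Adipoq, 1.06 for Lep, 0.82 for Retn, 0.93 for Plin1 and 0.81 for Cidec, where the median gene tested had 0.24. Between 94.0% and 97.2% of all genes tested had a smaller SD than these genes, of which Lep and Retn had as few as 7 and 13 reads in a library.

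**Figure D2:**
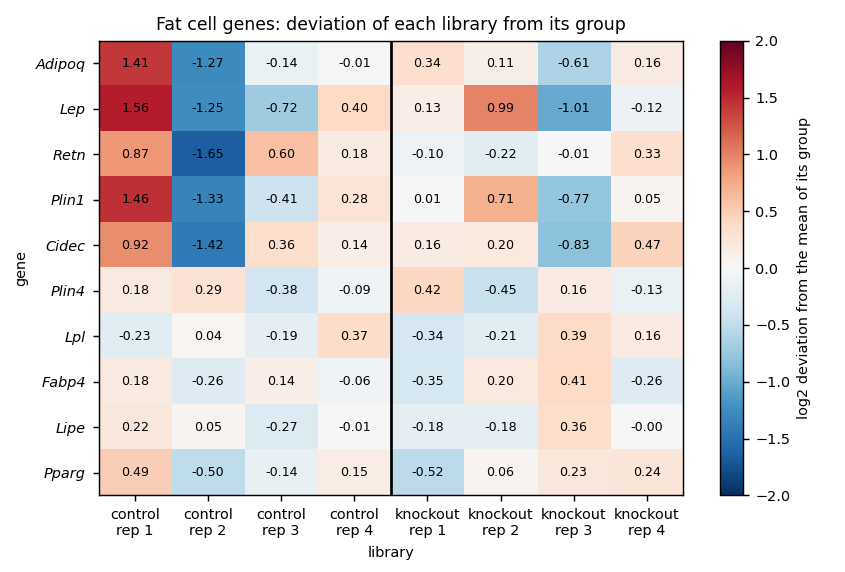
Deviation of each library (columns) from the mean of its own group, in log2 units, for the 10 fat cell genes (rows), with red above and blue below the group mean and the black line between the groups. The top 5 genes are high in control replicate 1 and low in control replicate 2, with Adipoq at 1.41 and -1.27, while the lower rows stay closer to 0.

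The sequences just upstream of 4 of the genes that varied together across the libraries are shown. Each is the 250 bases before the start of transcription in RefSeq on GRCm38.p6, the build that mm10 names, on the strand of the gene. Adipoq is taken from chr16:23146286-23146535 (plus strand), Lep from chr6:29059971-29060220 (plus), Plin1 from chr7:79732777-79733026 (minus) and Cidec, at 1 of its 2 listed starts, from chr6:113434765-113435014 (minus). Capitals mark matches to TTGCNNAA, the letters searched for a C/EBP element on both strands.
Adipoq: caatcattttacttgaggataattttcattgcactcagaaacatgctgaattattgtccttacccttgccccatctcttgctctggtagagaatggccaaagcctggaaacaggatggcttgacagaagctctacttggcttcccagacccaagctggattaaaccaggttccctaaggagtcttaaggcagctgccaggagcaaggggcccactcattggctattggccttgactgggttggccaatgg
Lep: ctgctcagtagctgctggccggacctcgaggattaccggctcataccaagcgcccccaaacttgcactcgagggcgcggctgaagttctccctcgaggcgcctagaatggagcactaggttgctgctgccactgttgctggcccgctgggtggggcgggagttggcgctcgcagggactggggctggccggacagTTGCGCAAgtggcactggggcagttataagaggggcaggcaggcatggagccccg
Plin1: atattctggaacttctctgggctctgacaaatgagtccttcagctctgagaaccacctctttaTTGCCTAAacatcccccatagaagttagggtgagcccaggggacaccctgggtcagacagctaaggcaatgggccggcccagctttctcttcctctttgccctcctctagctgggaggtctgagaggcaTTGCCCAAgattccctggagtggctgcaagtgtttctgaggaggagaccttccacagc
Cidec: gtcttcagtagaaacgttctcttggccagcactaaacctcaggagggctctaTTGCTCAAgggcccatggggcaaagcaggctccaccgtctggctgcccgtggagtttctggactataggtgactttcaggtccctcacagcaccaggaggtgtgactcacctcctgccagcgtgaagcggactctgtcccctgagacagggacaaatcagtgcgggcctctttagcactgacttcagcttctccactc
The match in Lep begins 55 bases before the start and reads the same on both strands, those in Plin1 begin 187 and 58 bases before it, and that in Cidec begins 198 bases before it. The windows of Adipoq, of Retn (not printed) and of the other listed start of Cidec (not printed) hold none. That says only that these letters are not in them. Of 32851 such windows of the same length over all listed starts, 9.56% hold at least 1 match. The printed windows are a choice, so their share with a match cannot be read against that percentage. The letters AGGTCA repeated with 1 base between them, searched on both strands as the joint PPAR and RXR element, were found in 0.0335% of all windows and in none of the 12 windows listed for 8 of the 10 genes. A match is a description of letters and not of a bound site.

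Lpl encodes lipoprotein lipase, which frees fatty acids from circulating triglyceride for fat and muscle alike. The gene lies at chr8:68880491-68907448 on the plus strand (mm10). It fell in the libraries labelled knockout. Lpl had 8451, 10194, 8705 and 12846 normalised reads in the control libraries, in replicate order, and 4825, 5299, 8008 and 6854 in the knockout-labelled libraries. Knockout replicate 3 came closest to the control libraries, but the groups did not overlap. The means were 10049 ± 2017 and 6247 ± 1460 (SD, n = 4), which is -0.69 on the log2 scale (standard error 0.18) or 0.618 of the control level, and the 95% interval was -1.11 to -0.28 (limma adjusted p = 0.0246). The exact two-sided permutation test gave p = 0.0286, the smallest that 4 against 4 libraries allow.

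The call of Lpl was not held by quantile normalisation (log2 difference -0.40, limma adjusted p = 0.108). Nor was it held without control replicate 2 (limma adjusted p = 0.0636), control replicate 4 (0.0614), knockout replicate 1 (0.0609) or knockout replicate 2 (0.0651), where the differences were -0.68, -0.57, -0.58 and -0.63. Muscle genes shared its direction between the groups: 5 of the 10 genes of a muscle marker list were called, each lower, and the groups did not overlap for 9. Of all genes tested 11.6% were called lower, and 13.4% had groups that did not overlap and were lower. On the muscle list edgeR and DESeq2 called 9 each. Within the group labelled knockout the order of the libraries differed. Ckm, Myh4, Mylpf, Casq1, Pygm and Myoz1 were highest in knockout replicate 1, where Lpl was lowest. Acta1, Myh1, Tnnt3 and Atp2a1 were highest in knockout replicate 3, as Lpl was. The summed level of that list was 2036315 to 2165401 normalised reads in the control libraries and 954233 to 1372565 in those labelled knockout, with no marker at 0. When the libraries were scaled on the genes left without muscle, blood and the 50 highest genes, the difference of Lpl was -0.54 and it stayed called, but the exact permutation p was 0.0571. The part of muscle in the fall of Lpl was not tested.

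Fabp4, the lipid-binding protein of fat cells, capillary endothelium and macrophages, was not called. It had 2944, 2167, 2859 and 2484 normalised reads in the control libraries, in replicate order, and 1815, 2662, 3065 and 1934 in the knockout-labelled libraries. Its highest library was knockout replicate 3 and its lowest knockout replicate 1, so the group labelled knockout spanned all the control libraries. The log2 difference was -0.17 with a 95% interval of -0.55 to 0.22 (limma adjusted p = 0.518). Of 8 endothelial markers none was called by limma, edgeR or DESeq2, and 0 had an unadjusted limma p under 0.05. Their summed level was 5512 to 6914 in the control libraries and 4212 to 8935 in those labelled knockout. Knockout replicate 3 was the highest library for Cdh5, Pecam1, Kdr, Tie1, Esam and Egfl7. Cldn5 was highest in knockout replicate 2 and Emcn in control replicate 3. Of 9 macrophage markers 8 were called, each higher, where 11.6% of all genes tested were called higher. Their summed level was 2890 to 6760 in the control libraries and 9997 to 14334 in those labelled knockout. The part of either cell type in the level of Fabp4 was not tested.

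Lipe encodes hormone-sensitive lipase, which splits stored diglyceride. It had 576, 513, 408 and 492 normalised reads in the control libraries, in replicate order, and 346, 347, 504 and 393 in the knockout-labelled libraries. Of the libraries labelled knockout, 3 lay below the control libraries and replicate 3 lay among them. Its log2 difference was -0.33 (standard error 0.15). The adjusted p from limma was 0.129 and the exact permutation p 0.0857, and Lipe was called only without knockout replicate 3 (-0.45, limma adjusted p = 0.0343). Lipe is overlapped on the opposite strand by 4732471J01Rik.

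Pparg, the gene of the nuclear receptor that drives fat cell formation, was low in all libraries. It had 87.6, 43.4, 56.1 and 69.0 normalised reads in the control libraries, in replicate order, and 33.9, 51.3, 57.6 and 58.1 in the knockout-labelled libraries. Control replicate 1 was highest and knockout replicate 1 lowest, and the other libraries were mixed between the groups. The log2 difference was -0.33 with a 95% interval of -0.92 to 0.27 (limma adjusted p = 0.397). Gm44079 lies opposite to Pparg in the annotation.

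**Figure D3:**
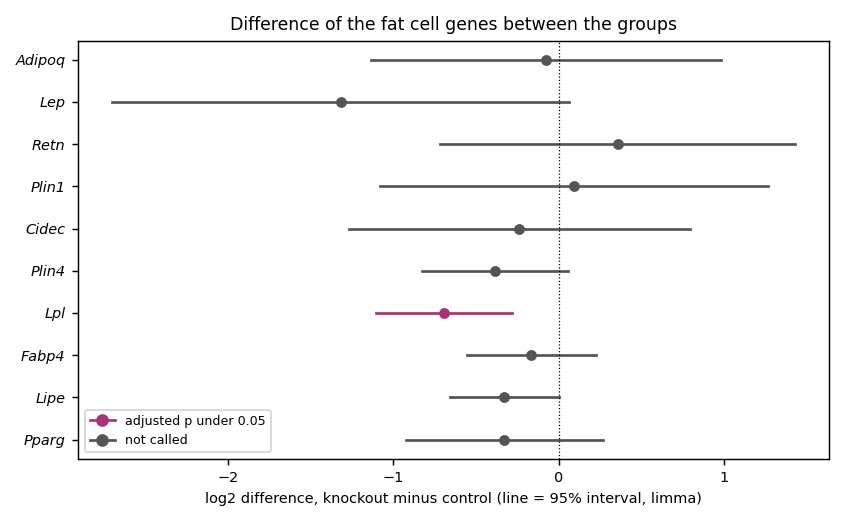
Log2 difference, libraries labelled knockout minus control (horizontal axis), of the 10 fat cell genes, with points for the limma estimate and lines for its 95% interval. The interval of Lpl, -1.11 to -0.28, lies below 0 and Lpl is the one gene called, that of Lipe ends just below 0, and those of Adipoq, Lep, Retn, Plin1 and Cidec are the widest.

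Levels of different genes were compared per kilobase of annotated exon. Lpl, Plin4 and Fabp4 formed the upper group, with means over the 8 libraries of 778, 763 and 555 normalised reads per kb. Lpl exceeded Plin4 in 5 of the 8 libraries and Plin4 exceeded Fabp4 in 7, so the order of Lpl and Plin4 was within their spread. Adipoq followed at 89.5, Lipe at 76.0 and Cidec at 71.1 reads per kb, and these neighbours were not separated, since Adipoq exceeded Lipe in 5 libraries and Lipe exceeded Cidec in 3. Retn at 34.4, Plin1 at 31.4, Pparg at 19.3 and Lep at 11.1 reads per kb were lowest, and Retn exceeded Plin1 in 4 of the 8 libraries. Fabp4 exceeded Adipoq in 8 of 8 libraries. The exon length of Fabp4 in the annotation is 4.49 kb and spans its introns, so its level per kb is understated. For each gene the length is that of all annotated exons together, 10.5 kb for Lpl, which a single transcript need not span. Levels of other genes may thus be understated as well, and the orders given hold for this length only.

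**Figure D4:**
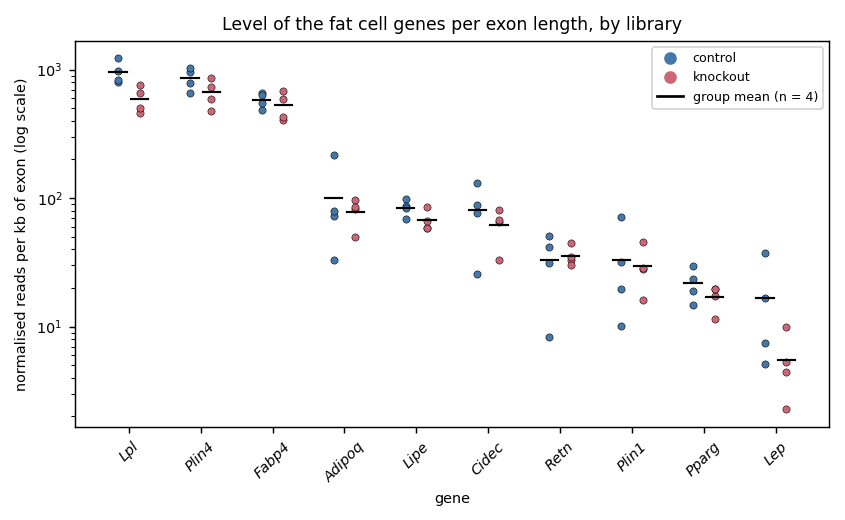
Normalised reads per kb of annotated exon (vertical axis, log scale) of the 10 fat cell genes in order of their mean, with 1 point per library and a line at each group mean. Lpl, Plin4 and Fabp4 stand at 555 to 778 reads per kb and the other 7 genes at 89.5 or below.

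Ratios within a library do not depend on how libraries are scaled. The log2 ratio of Plin1 to Adipoq ran from -0.15 to 0.89 over the 8 libraries and that of Cidec to Adipoq from -0.28 to 0.70. These were the narrowest of the 9 ratios, with ranges of 1.04 and 0.99 log2 units. The ratio of Lpl to Adipoq ran from 4.83 in control replicate 1 to 7.81 in control replicate 2, a range of 2.98, and that of Plin4 from 4.22 to 7.04 in the same libraries. The log2 ratio of Lep to Adipoq was -1.23, -1.40, -2.0 and -0.99 in the control libraries, in replicate order, and -2.90, -1.77, -3.17 and -2.98 in the knockout-labelled libraries. Here 3 of the 4 libraries labelled knockout lay below the control libraries, and knockout replicate 2 lay among them.

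The genes closest to the pattern of Adipoq, Plin1 and Cidec were sought by Pearson's r over the 8 libraries. It was taken between deviations from the group means and the averaged, standardised deviations of those genes. Among 11637 candidates with a mean of at least 50 reads the nearest were Sgms2, Tlnrd1, Snhg1, Hpgd and Pard3b, with r from 0.963 to 0.974 and Spearman's rho from 0.738 to 0.905. Lep had an r of 0.909, Retn 0.807 and Pparg 0.583, and Fabp4, Lipe, Plin4 and Lpl had 0.141, -0.116, -0.227 and -0.431. All these values share libraries, scaling and, for the most part, the contrast of control replicates 1 and 2, and describe 8 points only. Without those libraries r was 0.809 for Lep, -0.03 for Retn and -0.28 for Pparg, so the likeness of Retn and Pparg rested on them. Fat genes outside the 10, named after their values were seen, differed in their likeness to this pattern. Scd1, the stearoyl-CoA desaturase of fat, had 2582 normalised reads in control replicate 1 and 389 in control replicate 2, with an r of 0.944 (0.704 without those libraries). Cfd, the gene of adipsin, had 1221 and 382 but also 1208 in control replicate 3, and its r fell from 0.842 to 0.387 without control replicates 1 and 2. Agpat2, an acyltransferase of triglyceride synthesis, had 134 and 142 (r = 0.161), and Cidea, a relative of Cidec, had 8.65 and 9.08 (r = 0.034).

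Wider lists of fat biology held more calls, in genes that are not limited to fat. Of 87 genes on 8 lists, 86 were in the table and 81 were tested, and 28 were called. Of these, 9 were higher in the second group and 19 lower, beside the 11.6% of all genes called in each direction. This split depended on scaling. It was 10 higher and 12 lower under quantile normalisation (45.5% higher, against 32.1%), and 17 higher and 14 lower when libraries were scaled without muscle, blood and the 50 highest genes (54.8% higher), a scaling that moved the median difference of all genes to 0.149. Strand use in counting is not given, and Me1, Gpd1, Gpam, Elovl6, Fitm2, Cap1, Dio2, Pdgfra, Icam1 and Fabp3 also have a gene on the opposite strand, so their counts are uncertain to that extent.

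Genes of fatty acid and triglyceride synthesis moved in both directions. On the synthesis list 8 of 14 genes were called, 5 lower and 3 higher, beside 23.2% of all genes tested. The median difference of the list was 0.05. Lower were Gpam, the first acyltransferase of triglyceride synthesis, from 2168 ± 369 to 1078 ± 169 (SD, n = 4; log2 difference -1.01, limma adjusted p = 0.00399), and Lpin1, the phosphatidate phosphatase, from 4229 ± 610 to 2298 ± 247 (-0.87, limma adjusted p = 0.00398). Malic enzyme, Me1, fell by 0.67 on the log2 scale (limma adjusted p = 0.00629), and Gpd1 and Thrsp were the other 2, at -0.70 and -0.57. The 3 higher genes were Elovl6, Fasn and Acly, of fatty acid elongation and synthesis, at log2 differences of 1.053, 0.76 and 0.56, and these were named after their values were seen. The calls of Thrsp and Fasn were lost in some alternatives, with limma adjusted p-values up to 0.0930 and 0.0538.

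On the list of other droplet proteins and lipolysis 3 of 12 genes were called, each lower, with a median difference of -0.34, where 11.6% of all genes tested were called lower. With libraries scaled without muscle, blood and the 50 highest genes, 2 genes of this list were called higher and 3 lower. Of the 10 muscle markers given beside Lpl 5 were called lower in the same comparison, and their part in this list was not tested. Plin5, the perilipin of oxidative tissues, fell from 558 ± 91.3 to 225 ± 45.8 (SD, n = 4; log2 difference -1.31, limma adjusted p = 0.00397). Pnpla2, the first lipase of the droplet, fell by 0.80 (limma adjusted p = 0.00714), and Fitm2, a droplet-forming protein, fell by 0.71 on the log2 scale (limma adjusted p = 0.0119). Plin2, the perilipin found in most cells, had a difference of -0.04 (limma adjusted p = 0.811). On the list of uptake and insulin response 4 of 13 genes were called, each lower, with a median of -0.40, among them the fatty acid transporters Slc27a1 (-0.48) and Cd36 (-0.60), and the insulin-regulated glucose transporter Slc2a4 (-0.40). Quantile normalisation ended the calls of Slc27a1, Cd36 and Slc2a4, with limma adjusted p-values of 0.0685, 0.0976 and 0.492. That of Slc2a4 was also lost without any 1 of 6 of the 8 libraries, with limma adjusted p-values of 0.0951 to 0.121, and with edgeR (0.0660), no filter (0.0565), the replicate block (0.116) and the scaling without muscle and blood (0.148). Under that scaling 1 gene of the uptake list was called higher and 3 lower.

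Called genes for receptors of fat hormones differed in direction. Of 10 tested genes on the list of other adipokines and receptors 3 were called, beside 23.2% of all genes tested. The adiponectin receptor genes Adipor1 and Adipor2 fell, from 5501 ± 565 to 3893 ± 400 and from 2257 ± 188 to 1787 ± 114 (SD, n = 4; log2 differences -0.50 and -0.34, limma adjusted p = 0.0129 and 0.0222). Cap1, an actin regulator also described as a receptor for resistin, rose from 833 ± 126 to 1342 ± 175 (0.69, limma adjusted p = 0.00808). Lepr, the leptin receptor gene, had means of 87.1 ± 41.9 and 165 ± 43.4 (SD, n = 4), a log2 difference of 1.03 that limma did not call (adjusted p = 0.0633). It was called without control replicate 1 (1.26, limma adjusted p = 0.0391), by DESeq2 (0.93, adjusted p = 0.0330) and when scaled without muscle, blood and the 50 highest genes (1.18, limma adjusted p = 0.0448). Quantile normalisation ended the calls of both adiponectin receptors (limma adjusted p = 0.165 and 0.167), and that of Adipor2 was also lost without control replicate 2 (0.0657), knockout replicate 1 (0.0574) or knockout replicate 4 (0.0630), with the replicate block (0.0593) and under the scaling without muscle and blood (0.122).

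Among transcription factors of fat formation 1 of 11 was called, beside 23.2% of all genes tested. That gene was Rxra, the partner of PPAR-gamma, which fell from 3301 ± 62.0 to 2370 ± 216 (SD, n = 4; log2 difference -0.48, limma adjusted p = 0.00588). Quantile normalisation brought its limma adjusted p to 0.0519. Cebpa, a C/EBP factor of mature fat cells, had a difference of 0.59 and was not called (limma adjusted p = 0.0581), but was called without control replicate 1 (0.77, limma adjusted p = 0.0179), by DESeq2 (adjusted p = 0.0358) and under the scaling without muscle and blood (0.74, limma adjusted p = 0.0319). Cebpb and Cebpd had differences of 0.03 and 0.38 (limma adjusted p = 0.931 and 0.127).

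The progenitor genes that were called all rose. On the list of fat cell progenitors 4 of 9 tested genes were called, each higher, with a median difference of 0.66. Of all genes tested 11.6% were called higher. Pdgfra, a receptor of fat progenitors and of fibroblasts at large, rose from 442 ± 146 to 1075 ± 264 (SD, n = 4; log2 difference 1.31, limma adjusted p = 0.0105), and Pdgfrb rose by 0.88 (limma adjusted p = 0.00767). F3 rose by 1.43 and Icam1 by 0.66 (limma adjusted p = 0.0214 and 0.0229). The call of F3 was lost without knockout replicate 1 (limma adjusted p = 0.0554) or 4 (0.0590), and that of Icam1 without control replicate 2 (0.0545), control replicate 4 (0.0585) or knockout replicate 1 (0.0611) and under quantile normalisation (0.109). Dpp4 and Pi16, which mark early progenitors, had differences of 0.64 and 0.55 (limma adjusted p = 0.537 and 0.334). Fibroblast markers moved with this list: 6 of 8 were called, each higher, with a summed level of 68097 to 191959 in the control libraries and 212309 to 364677 in those labelled knockout, and with none at 0. Their part in the rise was not tested.

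Markers of brown fat were barely detected. Ucp1, the uncoupling protein that defines it, had at most 9.41 normalised reads in a library and was at 0 in 5 of the 8, and Elovl3 had at most 2.64, so neither was tested. Of the 5 tested genes of the thermogenic list 3 were called, beside 23.2% of all genes tested. Dio2, the thyroid hormone deiodinase, rose from 97.4 ± 65.7 to 376 ± 110 (SD, n = 4; log2 difference 2.13, limma adjusted p = 0.00933). Cox8b and Cox7a1, subunits shared with muscle, fell by 0.67 and 0.52 on the log2 scale (limma adjusted p = 0.00456 and 0.0426). The call of Cox7a1 was lost in 9 of 18 alternatives, 6 of which left out 1 library (limma adjusted p 0.0728 to 0.116), with the highest adjusted p, 0.127, under quantile normalisation.

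Relatives of the 10 genes were compared as well. Fabp3, the muscle and heart relative of Fabp4, fell from 10040 ± 3103 to 4847 ± 551 (SD, n = 4; log2 difference -1.01, limma adjusted p = 0.00765), and its groups did not overlap. Fabp5, the epidermal and macrophage form, had a difference of 0.27 (limma adjusted p = 0.459). Ppara, the liver and muscle relative of Pparg, fell by 0.77 on the log2 scale (limma adjusted p = 0.0466), a call lost in 10 of 18 alternatives. Ppard had a difference of -0.18 (limma adjusted p = 0.186). Of the 7 tested relatives these 2, Fabp3 and Ppara, were the ones called, beside 23.2% of all genes tested.

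**Figure D5:**
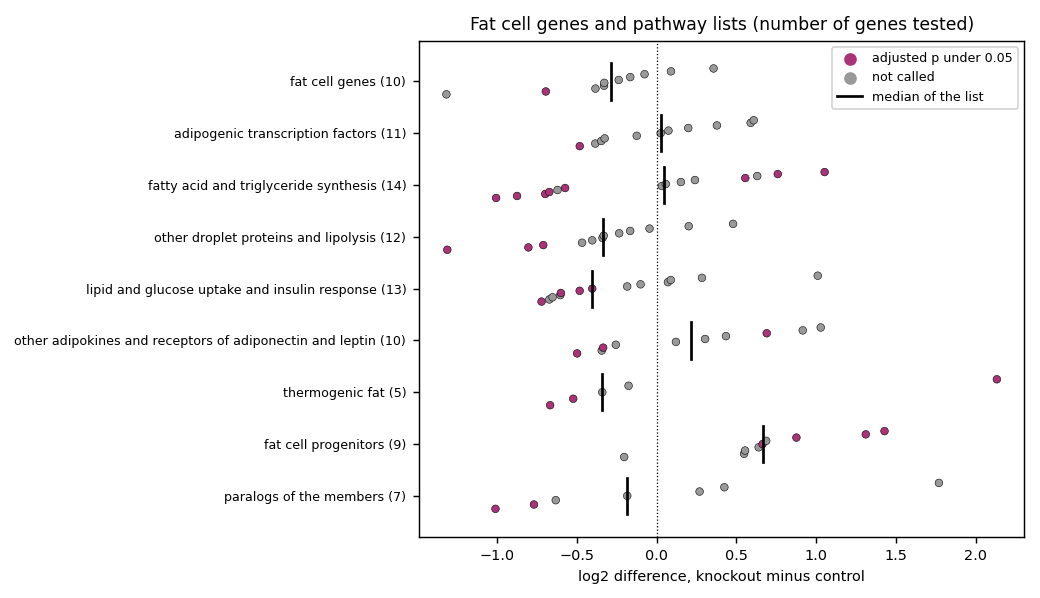
Log2 difference, libraries labelled knockout minus control (horizontal axis), of each tested gene of the 10 fat cell genes and of 8 pathway lists (rows, with the number of genes tested), with called genes in purple and the median of each list as a black line. Of the 81 pathway genes 28 were called, 9 higher and 19 lower, and the called progenitor genes lie to the right of 0.

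Markers of the other tissues of the joint were recorded for the same libraries. Neutrophil and erythroid markers had summed levels of 1152 to 4781 and 14262 to 83595 in the control libraries and of 1047 to 2483 and 3766 to 37348 in those labelled knockout. Limma, edgeR and DESeq2 called none of these 11 genes, with 1 of 6 and 5 of 5 at an unadjusted limma p under 0.05. Of the 5 keratinocyte markers 2 were in the table, Krt10 and Lor, with a summed level of 26.9 to 58.1 over the 8 libraries. Of 6 chondrocyte markers limma called 1 and of 6 osteoblast markers 4, all higher, where 11.6% of all genes tested were called higher. Of the osteoblast markers edgeR and DESeq2 called 2 each, and of the chondrocyte markers 1 and 2.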

How the data were processed

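RNA was measured in 8 whole knee joints, 4 labelled control and 4 labelled knockout, grouped by their titles. Per the labels and the submitters' processing notes, the authors aligned reads to mm10 with HISAT2, counted them per gene with featureCounts, and normalised and filtered with DESeq2. Versions, annotation, strand setting and filter values are not given in the sources used here. The deposited values are treated as a normalised signal, the read count of a gene divided by a library size factor. Dividing a column by its smallest positive value returned whole reads for 100% of its genes, within 0.001, in all 8 columns, 13991000 to 17411617 per library. In control replicate 2 and knockout replicate 1 that step was 1.009 and 0.9973, so close to 1 that it carries less information. The smallest sum of reads of a gene was 10, so rarer genes had been left out before deposit.

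The filter kept genes that reached 10 in 4 or more of the 8 libraries, and limma 3.58.1 was run on log2(value + 1), with 1 group term and an intensity trend, and Benjamini-Hochberg adjustment over 14949 genes. The pseudocount understates changes of low genes. For single genes an exact permutation test, two-sided and unadjusted, used 70 assignments of libraries. Tests were tried on simulated counts first. The 10 genes, the lists and the tests were chosen with earlier results of these data known. Named were the 10 genes, up to 3 called genes of smallest p per pathway list, the 5 nearest genes by r, and genes named after their values were seen. Some of the last are marked so in the text, and the others are as follows (Gpd1, Thrsp, Slc2a4, Icam1, Lepr, Cebpa, Cebpb, Cebpd, Plin2, Dpp4, Pi16, Ucp1, Elovl3, Ppargc1a, Prdm16, Fabp5, Ppard, Agpat2, Cidea, Retnla and the cell type markers). Alternatives were other pseudocounts, filters and scalings, edgeR 4.0.16 and DESeq2 1.42.0 on the recovered reads, the replicate number as a block, and leaving out each library. Coordinates, overlaps and exon lengths are from GENCODE M21 on the mm10 build, which matched 99.2% of rows, and upstream sequences from RefSeq on GRCm38.p6. Nothing states that libraries came from separate animals, so p-values measure the spread between these libraries, which may be technical. The labels give no batch or date. Columns without a sample numbered 0. On the recovered reads edgeR called 3324 and DESeq2 4125 genes. A result for 1 gene of the uptake list is not reported here.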

Additional observations from a re-analysis of the deposited data

Results flagged for a closer look

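A single library stood far from the other 3 of its group for 5 of the genes named, among 96 groups of 4 examined, a check that chance alone meets in about 1 of 20 groups. Retnla, a relative of Retn transcribed by alternatively activated macrophages and eosinophils and named after its values were seen, had 3507 normalised reads in knockout replicate 3 and 70.8, 75.3 and 81.0 in the other libraries labelled knockout, beside 29.0 to 90.9 in the control libraries. Retn itself had 55.5 in knockout replicate 3. Slc2a4 had 8494 in knockout replicate 3, above 5934 to 6251 in the other 3 of that group. Fabp3 had 5672 in knockout replicate 2, above 4552 to 4601 in the others. Fitm2 had 2893 in control replicate 2, above 2206 to 2307, and Adipor1 had 3297 in knockout replicate 4, below 4030 to 4144.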

How the results depend on the processing

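Lpl stayed called in 13 of 18 alternatives and was lower in 18 of 18, with log2 differences of -0.82 to -0.40. The number of fat cell genes called was 1, as reported, under most settings, but 2 by DESeq2, and 0 by limma under quantile normalisation, where 3 had an unadjusted p under 0.05. Leaving out 1 library gave 0 to 2. The number with an exact permutation p under 0.05 was 1, but 0 under quantile normalisation and 0 when scaled without muscle, blood and the 50 highest genes, and 0 to 1 without 1 library. Signs of uncalled genes moved: Adipoq was at 0.073 when scaled without muscle and blood and from -0.50 to 0.40 without 1 library, Retn from -0.19 to 0.65 and Cidec from -0.71 to 0.0702 without 1 library. Plin1 was at -0.13 under quantile normalisation, -0.16 with edgeR, -0.16 with DESeq2 and from -0.35 to 0.58 without 1 library, and Fabp4 at 0.0255 under quantile normalisation. Scd1 was at -0.22 with edgeR, -0.22 with DESeq2 and from -0.45 to 0.46 without 1 library. The cause was not tested. The 28 pathway calls became 22 to 37. With the replicate block 2018 of all genes were called in place of 3461, 1 fat cell gene among them. The deviations of same-numbered libraries had correlations across genes of -0.23 to 0.21, and only replicate 1 matched its own number best. These few values show no clear pairing by number but cannot exclude one. Without 1 library 1740 to 3832 genes were called, fewest without knockout replicate 4 (1740), control replicate 2 (1909) and control replicate 4 (2209). Low counts limit Lep and Retn most, with 7 and 13 reads in their lowest libraries.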
